A study of Homo sapiens with 24 samples.

Results

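The early growth response (EGR) transcription factors EGR1, EGR2, EGR3 and EGR4, the cytoskeleton-associated gene ARC and the EGR corepressors NAB1 and NAB2 were described across all conditions of the series. These 7 genes, of 57500 in the deposited count tables, were taken by their GENCODE v29 symbols. They were chosen on their measured response to hyperthermia (HT) in these same libraries, so every difference between heated and unheated spheroids is given as a description, with no p-value for a member. The comparisons tested here, of RT with and without heat and of the untreated controls, share control or heated libraries with those differences. RNA was sequenced from spheroids, multicellular aggregates grown from the established human head and neck squamous cell carcinoma (HNSCC) lines FaDu (here a subline) and SAS. Each spheroid type had 4 conditions with 3 libraries each: an untreated control, radiotherapy (RT) as a single X-ray dose (FaDu, 7 Gy; SAS, 10 Gy), HT at 42.5 °C for 60 min, and the combination HT + RT, in which irradiation directly followed heating. All spheroids were collected 0.5 h after treatment. Because the RT dose differed between the spheroid types, dose and cell line cannot be told apart in any comparison of RT effects between them. The libraries held between 15203484 and 29452514 counts each (median 18378944). Replicate 1 of every FaDu condition stood apart from replicates 2 and 3 of the same condition: the chi-square per gene between libraries was 13.6 to 19.5 for pairs with replicate 1 and 3.29 to 4.69 between replicates 2 and 3, where sampling noise alone gives about 1. Pairs of SAS replicates lay between 4.32 and 10.6. In every library all 9 squamous and simple epithelial markers had counts, with a summed level of 10390 to 16070 CPM and KRT17 or KRT5 (FaDu) or KRT8 (SAS) as the most abundant.

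EGR proteins are zinc finger transcription factors that bind GC-rich DNA, and their genes are immediate early genes, transcribed within minutes of growth factors, stress or depolarisation without new protein synthesis. Serum response factor (SRF) with ternary complex factors (TCF) acts on such genes through CArG boxes, downstream of MAP kinases, and EGR1 is a textbook example of a gene induced by ionising radiation. NAB1 and NAB2 bind an inhibitory region of EGR1, EGR2 and EGR3 and recruit repressor complexes, and NAB2 is itself transcribed under EGR control, which closes a feedback loop. ARC, derived from a retrotransposon Gag gene, is best known from neurons, where it is an immediate early gene that acts in endocytosis of glutamate receptors.

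Levels are CPM, counts brought to a common library size with TMM scaling over all 24 libraries, given in the order of replicates 1, 2 and 3. EGR1, the family member that responds to the widest range of stimuli, had 94.6, 87.5 and 97.2 CPM in FaDu controls, 755, 194 and 229 CPM after RT, 1609, 1579 and 1500 CPM after HT and 1624, 1433 and 1533 CPM with HT + RT. In FaDu spheroids the control libraries were thus lowest, the RT libraries lay above them without overlap, and both heated conditions lay above RT and overlapped each other. In SAS spheroids EGR1 had 326, 382 and 804 CPM in controls, 840, 883 and 1166 CPM after RT, 544, 566 and 521 CPM after HT and 596, 575 and 584 CPM with HT + RT. Here the RT libraries were the highest and did not overlap any other SAS condition, while control replicate 3 lay above all heated libraries and the other two controls lay below them. Over all 8 conditions the mean EGR1 level fell in the order FaDu HT, FaDu HT + RT, SAS RT, SAS HT + RT, SAS HT, SAS control, FaDu RT and FaDu control. Neighbours in that order overlapped for FaDu HT and HT + RT, for SAS HT and SAS control, and for SAS control and FaDu RT. In bulk spheroid RNA, a change in the number of cells that transcribe a gene and a change in RNA per cell cannot be told apart.

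EGR2, known from myelinating Schwann cells and hindbrain patterning, had 3.10, 5.15 and 6.58 CPM in FaDu controls, 10.9, 6.71 and 6.17 CPM after RT, 96.7, 126 and 137 CPM after HT and 94.3, 121 and 122 CPM with HT + RT. The heated FaDu libraries stood far above the unheated ones, and control and RT overlapped. The SAS libraries held 2.2, 2.40 and 3.34 CPM of EGR2 in controls, 3.6, 5.33 and 4.69 CPM after RT, 8.50, 6.64 and 7.96 CPM after HT and 9.55, 7.39 and 7.76 CPM with HT + RT. The control libraries were lowest, RT lay above them and the heated libraries above RT, and of these groups HT and HT + RT alone overlapped. EGR3, required for muscle spindle development, had 3.84, 6.53 and 6.17 CPM in FaDu controls, 9.61, 8.89 and 6.80 CPM after RT, 74.6, 136 and 148 CPM after HT and 85.6, 131 and 141 CPM with HT + RT. In SAS spheroids EGR3 had 66.0, 80.9 and 90.0 CPM in controls, 97.4, 84.4 and 74.8 CPM after RT, 59.2, 62.0 and 43.3 CPM after HT and 56.1, 52.2 and 43.9 CPM with HT + RT. The heated libraries were thus the highest in FaDu and the lowest in SAS spheroids, with no overlap with the unheated libraries of the same type. EGR4, best known from male germ cells, had 1.31, 2.50 and 2.10 CPM in FaDu controls, 3.39, 3.89 and 3.48 CPM after RT, 85.1, 127 and 127 CPM after HT and 84.7, 105 and 122 CPM with HT + RT. All 3 RT libraries lay above the FaDu controls, and the heated libraries lay far above both. Its SAS levels stayed between 1.74 and 6.66 CPM in all 12 libraries, and there the control, HT and HT + RT ranges overlapped while RT lay highest on average, at 5.89 ± 1.23 CPM (SD, n = 3).

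**Figure D1:**
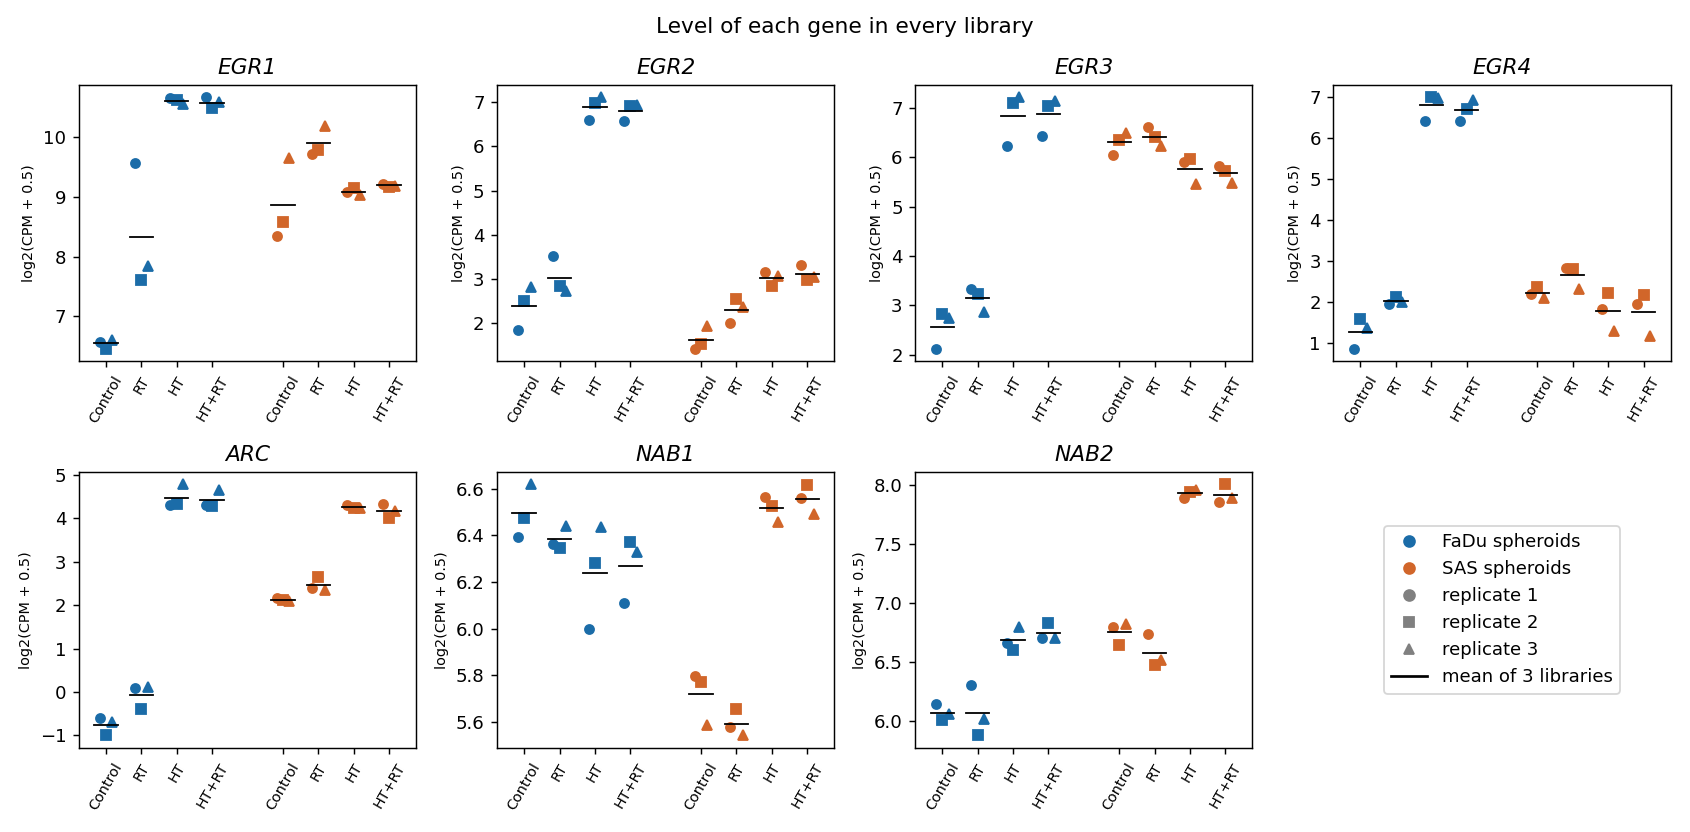
Level of each of the 7 genes in all 24 libraries, as log2 of CPM plus 0.5, by condition; colour marks the spheroid type, the symbol the replicate number and the bar the mean of 3 libraries. EGR2 to EGR4 and ARC in heated FaDu spheroids stand above every unheated FaDu library, and EGR1 after RT lies above the controls in both types.

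ARC was close to absent in unheated FaDu spheroids: controls held 3, 0 and 3 counts and RT libraries 11, 5 and 15 counts, against 333, 373 and 513 counts after HT and 339, 308 and 757 counts after HT + RT. In CPM the FaDu controls lay between 0 and 0.158, where a count of 0 in replicate 2 allows up to 0.153 CPM, and the heated libraries lay between 19.1 and 27.0. SAS spheroids held more ARC without heat, with 4.01, 3.82 and 3.75 CPM in controls and 4.79, 5.80 and 4.58 CPM after RT. The heated SAS libraries held 19.2, 18.5 and 18.2 CPM with HT and 19.4, 15.5 and 17.4 CPM with HT + RT. The 4 heated conditions formed a chain of overlapping neighbours (FaDu HT, FaDu HT + RT, SAS HT, SAS HT + RT), and below them SAS RT, SAS control, FaDu RT and FaDu control followed with no overlap between neighbours. With so few counts in FaDu controls, ratios of summed counts are given with 95% counting intervals, which cover counting error only. ARC was 231 times higher after HT (106 to 631), 227 times higher after HT + RT (104 to 620) and 5.10 times higher after RT (2.09 to 14.9) than in FaDu controls. The fitted log2 fold change of ARC after HT in FaDu spheroids lay between 7.27 without control replicate 2 and 8.22 without control replicate 1, and was 8.31 without replicate 1 in every FaDu condition.

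Of 8 neuronal markers looked at beside ARC, 6 were tested after HT in FaDu spheroids and 2 of them, RBFOX3 and TUBB3, were called higher, beside 4.29% of all genes tested. RBFOX3, at 0.283 CPM in FaDu controls, entered that test through the heated libraries, so nothing is read from its call or from this count. The summed level of that list was 12.9 to 20.1 CPM in FaDu controls and 37.0 to 53.9 CPM after HT, and 20.6 to 26.1 CPM in SAS controls and 33.7 to 39.6 CPM after HT. Other markers of the list moved less in FaDu spheroids. From control to HT the mean of SYP went from 1.51 to 1.14 CPM and SYN1 from 0.53 to 0.499 CPM. MAP2 went from 0.922 to 1.16 CPM and NEFL from 5.82 to 6.88 CPM. RBFOX3, a neuronal splicing factor, had mean levels of 0.283 CPM in FaDu controls, 19.9 CPM after HT and 20.01 CPM with HT + RT, and of 0.0960 CPM in SAS controls, 6.67 CPM after HT and 5.57 CPM with HT + RT. TUBB3, a tubulin that carcinomas also express and the most abundant of the list in controls, had a log2 fold change of 1.54 ± 0.21 (SE, 3 against 3 libraries) in FaDu spheroids after HT and 1.58 ± 0.17 after HT + RT. SYN1, of synaptic vesicles, was altered in SAS spheroids after HT + RT at 1.36 ± 0.43. SYN1 had 0.318 CPM in SAS controls and 0.840 CPM with HT + RT and entered through the heated libraries, so nothing is read from that call. STMN2 was at 0 in 23 of 24 libraries and SNAP25 in 11. The part of these markers in the ARC levels was not tested.

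The corepressors differed less between conditions than EGR2 to EGR4 did in FaDu spheroids. NAB1 had 83.6, 88.5 and 97.8 CPM in FaDu controls, 81.9, 80.8 and 86.2 CPM after RT, 63.4, 77.4 and 86.1 CPM after HT and 68.6, 82.3 and 79.9 CPM with HT + RT, and these groups overlapped except that HT + RT lay below control. In SAS spheroids NAB1 had 55.2, 54.1 and 47.7 CPM in controls, 47.4, 49.9 and 46.1 CPM after RT, 94.1, 91.6 and 87.3 CPM after HT and 93.8, 97.6 and 89.5 CPM with HT + RT. The heated SAS libraries were all above the unheated ones. NAB2, the corepressor under EGR control, had 70.5, 63.9 and 66.3 CPM in FaDu controls, 78.5, 58.4 and 64.4 CPM after RT, 101, 96.5 and 111 CPM after HT and 104, 113 and 104 CPM with HT + RT. Its SAS levels were 111, 99.7 and 113 CPM in controls, 106, 88.5 and 91.0 CPM after RT, 237, 246 and 248 CPM after HT and 231, 257 and 236 CPM with HT + RT. In both types the heated libraries lay above the unheated ones without overlap, and control and RT overlapped.

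Scaling by library totals in place of TMM shifted log2 levels by 0.134 in FaDu controls and by -0.143 in SAS spheroids after HT + RT. None of the 7 genes changed its direction in HT or HT + RT against control under RLE scaling. Per kilobase of exon, the only scale on which levels of different genes are compared, EGR1 led in every condition, from 29.7 ± 1.60 CPM per kb in FaDu controls to 498 ± 18 after HT (SD, n = 3). In FaDu controls NAB2 (22.2 CPM per kb) and NAB1 (18.4) followed EGR1, and EGR2 (1.34), EGR3 (1.13) and EGR4 (0.829) overlapped one another above ARC (0.0313). After HT in FaDu spheroids EGR4 stood second at 47.6 ± 10.3 CPM per kb, overlapping NAB2 (34.1 ± 2.43), and EGR2 (32.5 ± 5.66) and EGR3 (24.6 ± 8.10) came before NAB1 (15.5 ± 2.34) and ARC (7.34 ± 1.47). In SAS controls the order was EGR1, NAB2, EGR3, NAB1, EGR4, ARC and EGR2, from 161 down to 0.716 CPM per kb, with no overlap between neighbours. After HT in SAS spheroids it was EGR1, NAB2, NAB1, EGR3, ARC, EGR2 and EGR4, from 173 down to 1.29 CPM per kb, again with no overlap between neighbours.

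The EGR1 to EGR4 sum was higher in heated than in unheated FaDu spheroids, and in SAS spheroids the NAB1 and NAB2 sum was higher in the heated libraries. On the per-kilobase scale the EGR sum was 33 ± 1.71 CPM per kb in FaDu controls, 131 ± 101 after RT, 603 ± 14.8 after HT and 586 ± 22.2 after HT + RT (SD, n = 3), against NAB sums of 40.6 ± 1.36, 39.2 ± 3.47, 49.5 ± 4.26 and 51.3 ± 2.95. The ratio of EGR to NAB transcripts in FaDu spheroids was 0.811 ± 0.0168 in controls, 3.21 ± 2.21 after RT, 12.2 ± 1.05 after HT and 11.5 ± 1.04 after HT + RT. Both RT values rest on replicate 1: without it the mean EGR sum after RT was 72.5 CPM per kb and the mean ratio 1.93. The same ratio in SAS spheroids was 3.85 ± 1.78 in controls, 7.99 ± 1.71 after RT, 1.89 ± 0.0981 after HT and 2.02 ± 0.134 after HT + RT. In SAS spheroids the heated libraries thus had the lowest ratios and in FaDu spheroids the highest. EGR1 made up 82.7% ± 3.75 of the EGR sum in FaDu spheroids after HT, where EGR4 made up 7.89% ± 1.58, EGR2 5.39% ± 0.886 and EGR3 4.07% ± 1.3. In SAS controls EGR3 was the second at 9.95% ± 2.83, while EGR4 made up 1.13% ± 0.485 and EGR2 0.427% ± 0.0889. NAB2 made up 54.7% ± 2.75 of the NAB sum in FaDu controls, 68.9% ± 2.77 after HT, 76.9% ± 2.24 in SAS controls and 81.3% ± 0.903 after HT.

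**Figure D2:**
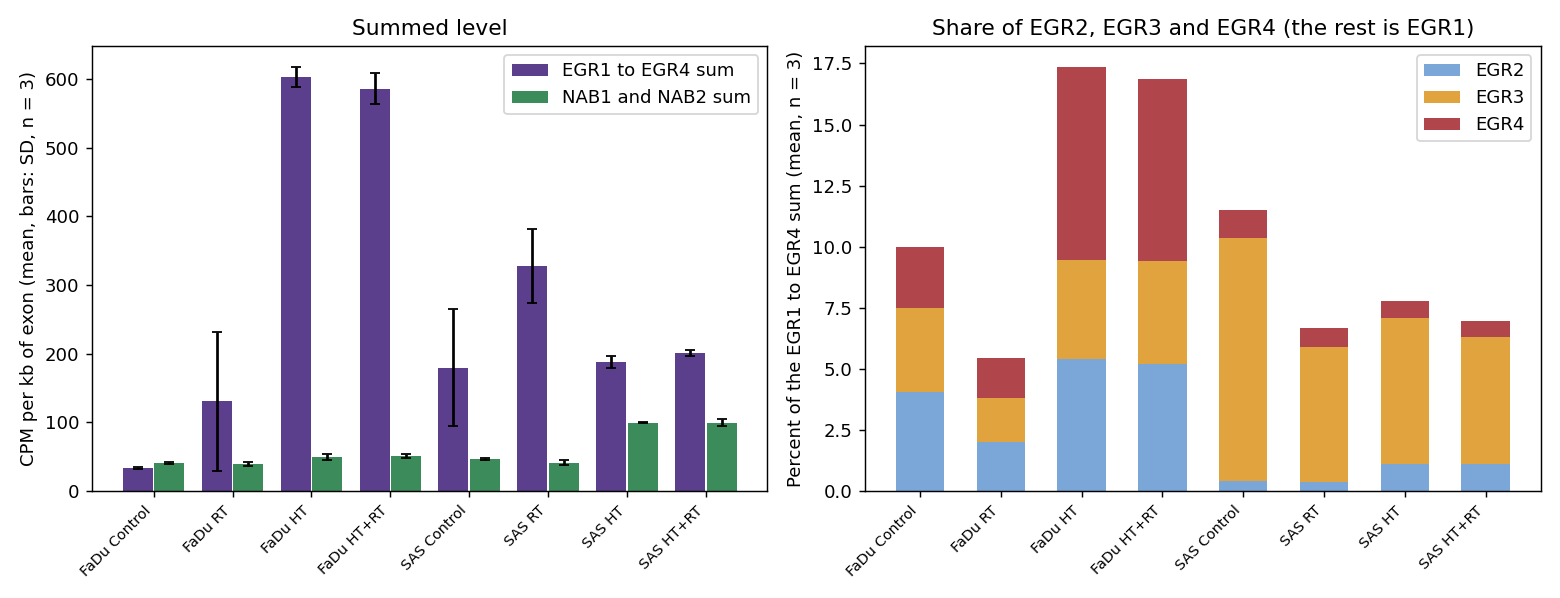
Left, the summed level of EGR1 to EGR4 and of NAB1 and NAB2 in CPM per kb of exon for each condition (mean and SD, n = 3); right, the mean percent of the EGR sum that EGR2, EGR3 and EGR4 hold, the rest being EGR1. The EGR sum is 603 CPM per kb in FaDu spheroids after HT and 33 in FaDu controls.

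Differences between conditions were fitted in edgeR, and a gene was called altered at an adjusted p under 0.05 with an absolute log2 fold change over 1. After HT, EGR1, EGR2, EGR3, EGR4 and ARC were called higher in FaDu spheroids, 5 of 7 members, beside 4.29% of 15879 genes tested. Nothing is read from that count, or from those of the other heated against unheated contrasts, because heat chose the members. The log2 fold changes were 4.09 ± 0.07 for EGR1, 4.6 ± 0.24 for EGR2, 4.45 ± 0.30 for EGR3, 5.85 ± 0.24 for EGR4, -0.23 ± 0.12 for NAB1 and 0.64 ± 0.08 for NAB2 (SE, 3 against 3 libraries). HT + RT against control called the same 5 genes, beside 5.08% of genes tested, with 4.07 ± 0.08 for EGR1 and 5.74 ± 0.21 for EGR4. HT + RT against RT called these 5 genes in FaDu spheroids, beside 4.76% of genes tested. There EGR1 had a log2 fold change of 1.99 ± 0.46, or 2.88 without FaDu RT replicate 1 and 2.83 without replicate 1 in every FaDu condition, and EGR2, EGR3 and EGR4 had 3.86 ± 0.20, 3.86 ± 0.21 and 4.89 ± 0.16. EGR1 lost that call without FaDu RT replicate 3 (1.71) or FaDu HT + RT replicate 3 (1.99), which left 4 members beside 3.92% and 3.46% of genes. With at least 10 counts asked of every library ARC was not tested in these 3 FaDu contrasts, and 4 of 6 members were called in each, beside 2.67%, 2.87% and 2.69% of genes. In SAS spheroids 3 of 7 members were called higher after HT, beside 5.31% of genes tested: EGR2 at 1.55 ± 0.20, ARC at 2.27 ± 0.12 and NAB2 at 1.18 ± 0.06. NAB1 followed at 0.80 ± 0.07, EGR1 was at 0.11 ± 0.25, and EGR3 (-0.52 ± 0.13) and EGR4 (-0.44 ± 0.26) were negative. EGR1 moved to 0.62 when SAS control replicate 3, the control with 804 CPM, was left out. HT + RT against control called the same 3 genes in SAS spheroids, beside 5.76% of genes tested, and HT + RT against RT called ARC (1.78 ± 0.14) and NAB2 (1.34 ± 0.07), beside 5.71%. In that last contrast EGR1 was at -0.72 ± 0.10, EGR3 at -0.76 ± 0.10 and EGR4 at -0.97 ± 0.27, while NAB1 was at 0.97 ± 0.06 and EGR2 at 0.85 ± 0.18. EGR4 was called lower there without SAS RT replicate 3 (-1.12), SAS HT + RT replicate 1 (-1.04) or SAS HT + RT replicate 2 (-1.24), beside 0.724%, 0.668% and 0.954% of genes.

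As a further description, the HT response was larger in FaDu than in SAS spheroids by 4.0 ± 0.33 on the log2 scale for EGR1 (3.45 without SAS control replicate 3), 3.08 ± 0.35 for EGR2, 5.0 ± 0.34 for EGR3 and 6.32 ± 0.37 for EGR4 (SE, 12 libraries). For NAB1 and NAB2 this difference of responses was -1.0 ± 0.15 and -0.51 ± 0.10. ARC had 5.53 ± 0.42, a fitted value that depends on the few counts in FaDu controls. The differences for HT + RT were 3.88, 2.90, 5.12 and 6.23 for EGR1 to EGR4, 5.57 for ARC, -1.01 for NAB1 and -0.43 for NAB2.

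**Figure D3:**
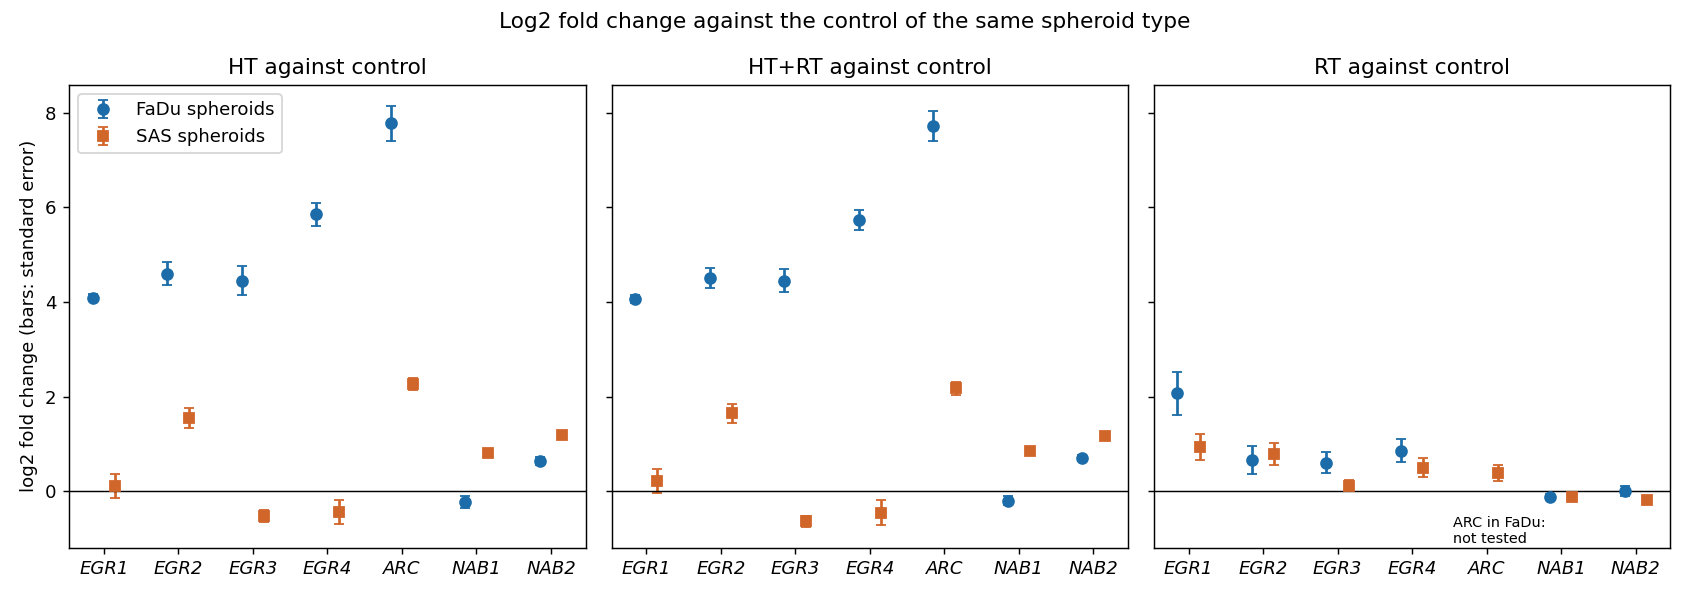
Log2 fold change of each gene against the control of the same spheroid type after HT, HT + RT and RT; points are edgeR estimates from 3 against 3 libraries and bars are standard errors. ARC after RT in FaDu spheroids was not tested because its counts were too low. After HT and HT + RT, EGR1 to EGR4 and ARC in FaDu spheroids lie above 4, and EGR3 and EGR4 in SAS spheroids lie below 0.

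Promoter sequences are shown for EGR1, EGR2 and EGR4, and for NAB2, the corepressor with EGR control. They are the 250 bases before the start site from RefSeq on build GRCh38.p14, where 5 of 7 members matched. EGR3 and ARC, which were also higher in heated FaDu spheroids, had no matching entry and are not shown for that reason. Capitals mark matches, on either strand, to a CArG box, to the core of a cAMP response element (ACGTCA) or to an EGR site (GCGTGGGCG or GCGGGGGCG). The EGR1 window (chr5:138465229-138465478, + strand) holds 2 CArG boxes, at 105 and 83 bases before the start site, and 2 ACGTCA matches at 136 and 67 bases. Of 3 EGR2 windows, the one shown (chr10:62816367-62816616, - strand) holds 1 CArG box at 71 bases and 1 ACGTCA at 55 bases before the start, and the other 2 hold none of the motifs searched. The EGR4 window (chr2:73293549-73293798, - strand) holds 2 ACGTCA matches at 178 and 110 bases and no CArG box. The NAB2 window (chr12:57088864-57089113, + strand) holds 1 GCGGGGGCG at 62 bases before the start.
EGR1: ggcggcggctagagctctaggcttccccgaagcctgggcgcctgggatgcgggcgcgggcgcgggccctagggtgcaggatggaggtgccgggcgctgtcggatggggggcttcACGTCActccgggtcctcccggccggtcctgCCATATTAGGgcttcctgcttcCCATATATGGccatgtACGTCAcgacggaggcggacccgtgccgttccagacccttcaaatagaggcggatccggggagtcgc
EGR2: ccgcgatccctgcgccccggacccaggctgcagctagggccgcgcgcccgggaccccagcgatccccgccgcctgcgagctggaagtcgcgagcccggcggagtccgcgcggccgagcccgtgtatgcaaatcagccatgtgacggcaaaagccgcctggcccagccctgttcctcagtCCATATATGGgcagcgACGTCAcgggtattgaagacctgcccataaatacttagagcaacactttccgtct
EGR4: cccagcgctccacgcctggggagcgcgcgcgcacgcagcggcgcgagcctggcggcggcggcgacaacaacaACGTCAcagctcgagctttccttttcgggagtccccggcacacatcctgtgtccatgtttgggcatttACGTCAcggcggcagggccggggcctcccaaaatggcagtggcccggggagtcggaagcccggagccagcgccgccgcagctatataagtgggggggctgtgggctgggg
NAB2: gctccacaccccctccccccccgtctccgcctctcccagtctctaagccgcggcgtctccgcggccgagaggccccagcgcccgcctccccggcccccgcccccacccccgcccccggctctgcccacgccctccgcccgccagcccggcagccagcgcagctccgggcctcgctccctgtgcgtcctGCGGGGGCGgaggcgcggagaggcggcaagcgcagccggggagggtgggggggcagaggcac
Of 35116 RefSeq promoter windows of this length, 1.16% held a CArG box, 7.1% ACGTCA, 1.65% the full element TGACGTCA that contains it, 4.72% GCGGGGGCG, 0.72% GCGTGGGCG and 0.441% the heat shock element GAANNTTCNNGAA. ACGTCA was added to the search after the sequences had been seen. The NAB1 windows, 1 for each RefSeq start site, held 2 GCGGGGGCG sites at 42 and 36 bases before one start, which an overlapping window holds at 230 and 224 bases before another start together with GCGTGGGCG at 175 bases, and ACGTCA at 200 bases before a further start. No member window held TGACGTCA or GAANNTTCNNGAA. A match is a description of letters and shows no binding.

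RT against control asks which genes radiation alone altered within 0.5 h. RT values did not choose the members, but the control libraries of this contrast entered the HT against control differences that did. Choosing high values of those pushes the RT difference up, so its p-values and calls for members are not independent of the choice. Immediate early genes altered by RT under a replicate block had also been seen in earlier results of these data. The RT values of EGR1 are thus not independent of what was known. In FaDu spheroids EGR1 was higher after RT in 3 of 3 same-numbered pairs, by 2.99, 1.15 and 1.23 on the log2 scale, and the groups did not overlap. The log2 fold change was 2.07 ± 0.45 (SE, 3 against 3 libraries), with an adjusted p of 0.347, and it was not called. EGR3 (0.60 ± 0.22) and EGR4 (0.85 ± 0.24) were likewise higher in 3 of 3 pairs without overlap and were not called (adjusted p of 0.901 and 0.588), and EGR2 had 0.66 ± 0.30. With replicate number as a block EGR3 had 0.59 ± 0.16 with an adjusted p of 0.0391 and EGR4 0.86 ± 0.21 with an adjusted p of 0.0218, both under the log2 threshold of 1. Over 13 alternatives the adjusted p ran from 0.0391 to 1.0 for EGR3 and from 0.0218 to 1.0 for EGR4. NAB1 was at -0.12 ± 0.07 and NAB2 at 0.00 ± 0.10, each overlapping its controls. In edgeR 0 of 6 members tested were called, beside 0.00643% of 15552 genes (1 gene). ARC had too few counts to enter this test. At an unadjusted p under 0.05 there were 3 members and 791 genes, and DESeq2 called 12 genes and 0 members. P-values here measure the spread between these libraries, among which FaDu RT replicate 1 had 755 CPM of EGR1 and the other two 194 and 229 CPM.

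Whether EGR1 was called after RT in FaDu spheroids depended on the fit. With replicate number as a block its log2 fold change was 1.79 ± 0.17 with an adjusted p of 1.27e-08, and EGR1 was called among 28 genes (0.18%). Without FaDu RT replicate 1 it was 1.18 with an adjusted p of 0.00105, called among 8 genes (0.0502%). Without replicate 1 in both groups, an alternative chosen after seeing the data that leaves 2 against 2 libraries, it was 1.19 with an adjusted p of 2.48e-15, among 15 genes (0.0934%). With no filter on low counts EGR1 was also called, among 28 of 32294 genes (0.0867%). Over all 13 alternatives the adjusted p of EGR1 ran from 1.70e-161 to 1.0. The lowest came from the unfiltered fit, in which the prior degrees of freedom were infinite, so that the gene's own spread did not enter. The block and the fit without replicate 1 had 2 residual degrees of freedom each and prior degrees of freedom of 28.3 and 34.3, against 4 and 4.77 in the fit without a block. The log2 fold change of EGR1 stayed above 1 in each of these fits.

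In SAS spheroids EGR1 was higher after RT in 3 of 3 same-numbered pairs, by 1.36, 1.21 and 0.54 on the log2 scale, with no overlap between the groups. Its log2 fold change was 0.93 ± 0.27 (SE, 3 against 3 libraries) with an adjusted p of 0.521. EGR2 (0.78 ± 0.23, adjusted p of 0.535) and ARC (0.39 ± 0.17, adjusted p of 0.850) were also higher in 3 of 3 pairs without overlap and were not called. EGR4 had 0.50 ± 0.19, EGR3 0.12 ± 0.12, NAB1 -0.13 ± 0.07 and NAB2 -0.18 ± 0.08, and each overlapped its controls. Of 7 members edgeR called 0, beside 0.0272% of 14680 genes (4 genes). At an unadjusted p under 0.05 there were 5 members and 834 genes, and DESeq2 called 10 genes and 0 members. With replicate number as a block EGR1 had 1.03 ± 0.09 with an adjusted p of 5.07e-08 and was called among 25 genes (0.17%), and EGR2 had 0.78 ± 0.20 with an adjusted p of 0.0451, under the log2 threshold of 1. Without SAS control replicate 3, the control with 804 CPM, EGR1 had 1.45 with an adjusted p of 0.00108 and was called among 5 genes (0.0334%). Over all 12 alternatives its adjusted p ran from 1.12e-54, in the unfiltered fit, to 1.0.

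**Figure D4:**
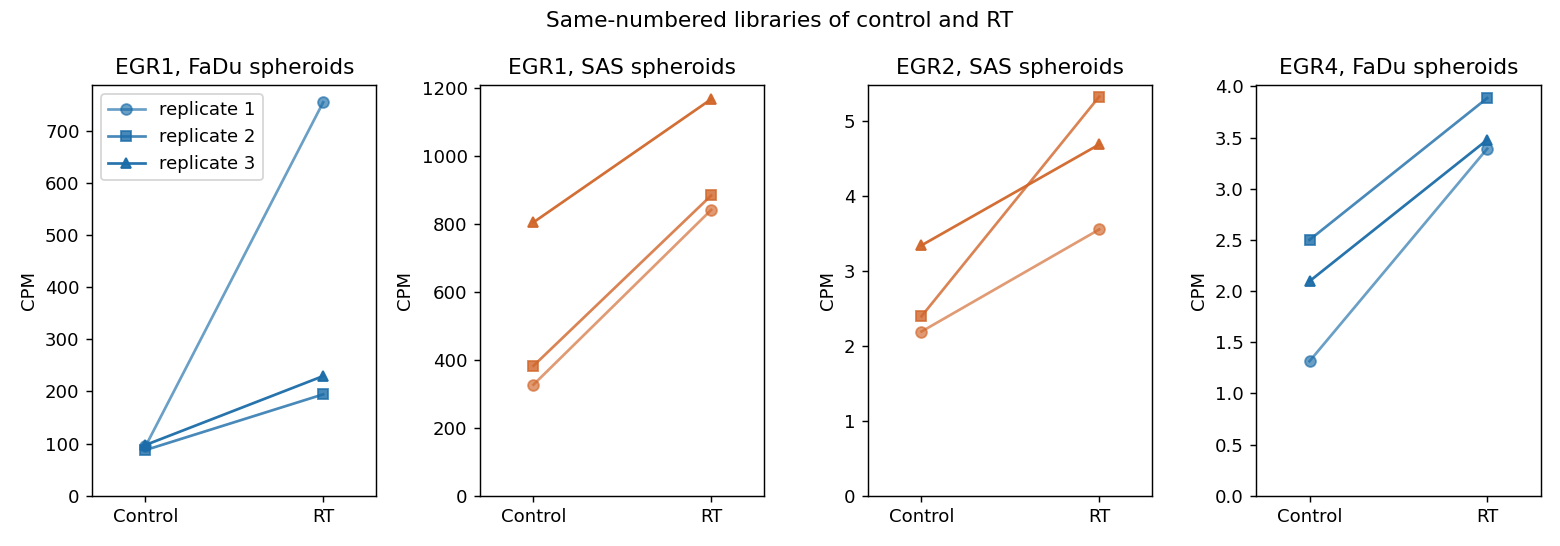
CPM of EGR1 in FaDu and SAS spheroids, EGR2 in SAS and EGR4 in FaDu spheroids, with lines joining same-numbered libraries of control and RT. All 3 lines rise in each panel, and in FaDu spheroids the EGR1 line of replicate 1 reaches 755 CPM while the other two end at 194 and 229 CPM.

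HT + RT against HT asks what radiation added in heated spheroids. It shares the HT libraries with the differences that chose the members, and choosing high HT values pushes it down. No conclusion is therefore drawn from its p-values or from the lack of calls. No member was called there, and in FaDu spheroids the log2 fold changes lay between -0.12 ± 0.18 for EGR4 and 0.06 ± 0.08 for NAB2, and every group pair overlapped. EdgeR called 0 of 7 members and 0% of 16145 genes, with 0 members and 361 genes at an unadjusted p under 0.05, and DESeq2 called 2 genes and 0 members. In SAS spheroids EGR1 was at 0.10 ± 0.05, with all 3 HT + RT libraries (575 to 596 CPM) above the HT libraries (521 to 566 CPM), and an adjusted p of 1.0. The other 6 members overlapped, between -0.12 ± 0.12 for EGR3 and 0.09 ± 0.15 for EGR2. EdgeR called 0 of 7 members and 0% of 15341 genes, with 0 members and 673 genes at an unadjusted p under 0.05, and DESeq2 called 3 genes and 0 members.

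Whether the RT effect differed with heat was fitted as a difference of differences. It holds the HT against control difference with a minus sign. That difference chose the members, and choosing high values of it pushes this one down. No conclusion is therefore drawn from the p-values and calls below. For EGR1 in FaDu spheroids the RT effect with heat minus that without heat was -2.11 ± 0.52 (12 libraries), for EGR4 -0.97 ± 0.33, for EGR2 -0.75 ± 0.34 and for EGR3 -0.60 ± 0.40. NAB1 and NAB2 were at 0.14 ± 0.15 and 0.05 ± 0.14. No member was called: edgeR gave 0 of 7 members and 0% of 16793 genes, with an adjusted p of 1.0 for EGR1, 4 members (EGR1, EGR2, EGR4 and ARC) and 541 genes at an unadjusted p under 0.05, and DESeq2 called 1 gene and 0 members. ARC entered this test through the heated libraries and held 0 to 15 counts in each unheated one, so nothing is read from its value. With at least 10 counts asked of every library ARC was not tested, and 2 of 6 members (EGR1 and EGR4) and 448 genes had an unadjusted p under 0.05. EGR1 was called at -1.22 (adjusted p of 0.00145) without FaDu RT replicate 1, as the 1 gene called of 17298, and at -1.24 (adjusted p of 2.96e-08) without replicate 1 in every FaDu condition, where 5 genes (0.0294%) were called. With the replicate block it was -1.95 ± 0.38 with an adjusted p of 0.0963, and over all 18 alternatives its adjusted p ran from 7.87e-86, again in the unfiltered fit, to 1.0. That fit called 2 members, EGR1 and the thinly counted ARC, among 18 of 38754 genes (0.0464%). In SAS spheroids the same difference was -0.84 ± 0.33 for EGR1, -0.70 ± 0.28 for EGR2, -0.53 ± 0.41 for EGR4, -0.50 ± 0.18 for ARC and -0.24 ± 0.19 for EGR3. EdgeR called 0 of 7 members beside 0.00632% of 15833 genes (1 gene), with 3 members and 629 genes at an unadjusted p under 0.05, and DESeq2 called 2 genes and 0 members. Without SAS control replicate 3 EGR1 was called at -1.35, among 2 of 16264 genes (adjusted p of 0.00119, range over 17 alternatives 9.78e-23 to 1.0).

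The RT effect itself, whose control libraries entered the HT differences that chose the members, was compared between the spheroid types. It was larger in FaDu spheroids by 1.14 ± 0.59 on the log2 scale for EGR1, which was not called (adjusted p of 1.0). The EGR1 difference was 0.25 without FaDu RT replicate 1, 0.64 without SAS control replicate 3 and 0.26 without replicate 1 in every FaDu condition, and EGR1 was called in the unfiltered fit (adjusted p of 9.83e-28), among 6 of 34996 genes (0.0171%). EdgeR called 0 of 7 members and 0% of 16811 genes, with 1 member (ARC) and 460 genes at an unadjusted p under 0.05, and DESeq2 called 1 gene and 0 members. ARC entered through the SAS libraries, with 0 to 15 counts in each FaDu one, so nothing is read from it. With at least 10 counts asked of every library it was not tested, and 0 of 6 members and 278 genes had an unadjusted p under 0.05.

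Before any treatment all 7 genes had an adjusted p under 0.05 between FaDu and SAS controls, as had 75% of all genes tested (11855 of 15810), and that of EGR2 depended on single libraries. On the log2 scale EGR1 (-2.41 ± 0.28), EGR3 (-3.80 ± 0.17) and EGR4 (-1.04 ± 0.25) were lower in FaDu controls (SE, 3 against 3 libraries) and were called. ARC (-5.22 ± 0.43) passed both thresholds too, but entered this test through the SAS libraries. It held 3, 0 and 3 counts in FaDu controls, so nothing is read from its call. ARC was 40.5 times higher in SAS controls by summed counts (95% counting interval 18.3 to 112). The adjusted p was 1.44e-05 for EGR1, 1.22e-08 for EGR3 and 0.00288 for EGR4. EGR2 (0.95 ± 0.29, adjusted p of 0.0118) and NAB1 (0.81 ± 0.08, adjusted p of 6.17e-06) were higher in FaDu controls and NAB2 (-0.66 ± 0.07, adjusted p of 8.92e-06) lower, and these 3 passed on the adjusted p only. ARC included, 4 of 7 members were called, beside 38.1% of all genes (6020 of 15810). A call in this comparison was thus common among all genes. With at least 10 counts asked of every library ARC was not tested, and 3 of 6 members were called beside 28.4% of genes. EGR4 lost its call without FaDu control replicate 1 (-0.82) or SAS control replicate 2 (-0.97), and EGR2 gained one without FaDu control replicate 1 (1.20) or SAS control replicate 3 (1.13). The adjusted p of EGR2 was 0.0666 without FaDu control replicate 3 (0.68) and 0.0517 without SAS control replicate 1 (0.82), and ran from 7.64e-05 to 0.0666 over 13 alternatives. These control libraries also entered the HT contrasts that chose the members. A low control level in FaDu spheroids and a large fold after HT share the same FaDu control values.

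Genes upstream of the EGR family were looked at as a list. That list of SRF, TCF factors and MAP kinases had 0 of 17 genes altered in FaDu spheroids after HT, beside 4.97% of all genes tested. Its median log2 fold change was -0.12 beside 0.01 over all genes. In SAS spheroids it had 0 of 17, beside 6.03%, with a median of -0.12. After RT it again had 0 of 17 in both types, beside 0.00643% (FaDu) and 0.0272% (SAS) of all genes. These counts of 0 lie near those shares, so nothing is read from them. The same shares in either direction, and 38.1% between the controls, apply to every list below. In the control comparison 5 of 17 were altered, beside 38.1% of all genes tested: MRTFA (1.79 ± 0.10), RPS6KA5 (1.58 ± 0.10) and MRTFB (1.08 ± 0.16) were higher in FaDu controls, and ELK3 (-1.88 ± 0.10), a TCF, and HSF1 (-1.71 ± 0.07), the heat shock transcription factor, were lower, with adjusted p between 4.29e-09 for HSF1 and 0.000106 for MRTFB. Of the other immediate early genes in FaDu spheroids, 17 of 18 were higher after HT, beside 4.29% of all genes, with a median of 3.02, and 18 of 18 after HT + RT, beside 5.08%, with a median of 3.24. FOS (6.64 ± 0.10), a subunit of AP-1, DUSP1 (4.74 ± 0.13), a MAP kinase phosphatase, and ATF3 (4.59 ± 0.25), a stress-induced factor, led after HT, and had 6.56 ± 0.10, 5.03 ± 0.12 and 4.95 ± 0.24 with HT + RT. In SAS spheroids 11 of 18 were higher and 1 was lower after HT, beside 5.31% and 0.713% of all genes, with a median of 1.26, and FOS had 3.65 ± 0.26 and CTGF 2.45 ± 0.16. With HT + RT 11 were higher and 1 lower in SAS spheroids, beside 5.76% and 0.596%, FOS at 3.49 ± 0.27 and CTGF at 2.76 ± 0.13. Between the controls, where 21.2% of all genes were called higher in FaDu and 16.9% lower, 4 of 18 were higher, NR4A1 (2.13 ± 0.16, adjusted p of 6.05e-07), NR4A2, NR4A3 and FOSB, and 7 were lower, CYR61 (-5.57 ± 0.09, adjusted p of 1.75e-11), CTGF, DUSP1, IER3, ATF3, KLF6 and JUN. NR4A3, an orphan nuclear receptor, went from a mean of 0.132 CPM in SAS controls to 1.76 CPM after HT. It entered the control comparison through the FaDu libraries and the SAS heat contrasts through the heated ones, so nothing is read from a call of NR4A3 there. Heat results of this list had been seen before it was written, so its counts are no independent evidence. After RT edgeR called 0 of 18 of these genes in FaDu spheroids, beside 0.00643% of all genes, with a median of 1.14 beside -0.002 over all genes. In SAS spheroids it called 1 of 17 tested, beside 0.0272%, with a median of 0.50 beside -0.004. That gene was CTGF, a matricellular growth regulator (1.29 ± 0.18, adjusted p of 0.0332). These counts come from the fit without a replicate block. With the block 28 genes in FaDu and 25 in SAS spheroids were called among all genes, against 1 and 4 without it. Immediate early genes altered under a block had been seen in earlier results of these data.

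Reported EGR target genes had 1 of 15 altered after HT in each type, beside 4.97% (FaDu) and 6.03% (SAS) of all genes, THBS1, which encodes a matrix glycoprotein, in FaDu (1.59 ± 0.22) and ICAM1, an adhesion molecule, in SAS spheroids (1.39 ± 0.21), with list medians of -0.03 and -0.25. With HT + RT the same genes had 2.10 ± 0.11 and 1.52 ± 0.18. After RT 0 of 15 were altered in both types. Of the same 15 genes, 9 differed between the controls, beside 38.1% of all genes, with FN1, fibronectin (-7.33 ± 0.22, adjusted p of 7.63e-10), THBS1 (-5.70 ± 0.07, adjusted p of 3.33e-12) and PDGFB (-3.94 ± 0.39, adjusted p of 4.48e-06) lower in FaDu and TNFSF10, the death ligand TRAIL (2.89 ± 0.25, adjusted p of 1.25e-06), higher. CD44, TGFB1, F3 and PDGFA were also lower and PTGES higher. Among NuRD subunits and other EGR or NAB partners, 1 of 15 was lower after HT in each type, beside 0.674% and 0.713% of all genes. It was DDX20, a helicase reported to bind EGR proteins, at -1.07 ± 0.15 in FaDu and -1.01 ± 0.11 in SAS spheroids. After RT 0 of 15 were called. Between the controls 0 of 15 passed both thresholds, beside 38.1% of all genes. The list median there was -0.40 on the log2 scale, beside 0.03 over all genes. Of 10 zinc finger factors of GC-rich sites 0 were altered after HT in FaDu spheroids and 0 of 9 tested in SAS spheroids. HT + RT against control called KLF9 in FaDu (1.80 ± 0.29) and KLF4 in SAS spheroids (1.14 ± 0.14). These were 1 of 10 and 1 of 9 tested genes, beside 5.08% and 5.76% of all genes called higher. KLF9 had 0.636 CPM in FaDu controls, 1.15 after HT and 2.14 with HT + RT. KLF4 had 11.25, 22.2 and 24.7 CPM in the same SAS conditions. HT + RT against HT called 0 genes of this list in either type. Between the controls KLF4 (2.38 ± 0.16, adjusted p of 2.19e-07) and KLF5 (1.18 ± 0.12, adjusted p of 4.63e-06) were higher in FaDu and KLF9 (-2.45 ± 0.36, adjusted p of 9.19e-05) lower, and WT1 had 1.55 CPM in FaDu and 0 in SAS controls, where a count of 0 allows up to 0.176 CPM in a library.

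The partners of ARC in endocytosis and synapses had 0 of 10 tested genes altered after HT or RT in either type. Between the controls DLG4, a synaptic scaffold (2.50 ± 0.25, adjusted p of 4.79e-06), and CAMK2B (1.01 ± 0.33, adjusted p of 0.0159) were higher and SH3GL1 (-1.09 ± 0.06, adjusted p of 6.17e-08) lower in FaDu. The glutamate receptor genes GRIA1 and GRIA2 were at 0 in 20 and 14 of 24 libraries. Of the domesticated Gag genes related to ARC, 1 of 7 tested was higher after HT in FaDu spheroids, beside 4.29% of all genes, RTL5 (1.47 ± 0.26, and 1.34 ± 0.24 with HT + RT), and 0 of 5 tested in SAS spheroids. After RT 0 of 7 and 0 of 5 were altered. Between the controls PEG10, which like ARC forms capsids (3.79 ± 0.07, adjusted p of 3.13e-11), MOAP1 (1.67 ± 0.08, adjusted p of 1.18e-08) and RTL5 (1.62 ± 0.38, adjusted p of 0.00263) were higher in FaDu and RTL8C (-1.24 ± 0.12, adjusted p of 2.89e-06) lower. LDOC1 was called as well, with 17.1 CPM in FaDu controls and 0 in all SAS libraries. RTL5 (1.21 CPM in FaDu and 0.390 CPM in SAS controls) and LDOC1 entered that test through the FaDu libraries, so nothing is read from their calls.

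Of the cell type lists, the epithelial markers had 0 of 9 altered after HT or RT in either type and 5 of 9 between the controls, beside 38.1% of all genes, with KRT5 (1.65 ± 0.07, adjusted p of 8.18e-09), KRT17 (1.56 ± 0.10, adjusted p of 1.20e-07) and KRT14 (1.3 ± 0.11, adjusted p of 8.76e-07) higher in FaDu and KRT18 (-1.47 ± 0.23, adjusted p of 0.000135) and EPCAM (-1.05 ± 0.07, adjusted p of 3.03e-07) lower. Neuronal markers differed between the controls in MAP2 (-2.68 ± 0.25, adjusted p of 2.96e-06) and SYP (-1.16 ± 0.34, adjusted p of 0.00917). Leukocyte markers summed to 1.79 to 4.33 CPM, 0 were altered after HT or RT, and ITGAM (2.23 ± 0.43, adjusted p of 0.000691) differed between the controls. ITGAM had 1.40 CPM in FaDu and 0.301 CPM in SAS controls and entered that test through the FaDu libraries, so nothing is read from its call. Fibroblast and endothelial markers summed to 43.7 to 54.1 CPM in FaDu controls and 13 to 22.0 CPM in SAS controls. COL1A1, a collagen chain and their most abundant gene in FaDu spheroids, was higher in SAS spheroids after HT (4.18 ± 0.28) and HT + RT (4.23 ± 0.18), while COL1A2 had at most 0.235 CPM on average in every condition. CDH5, PECAM1 and COL1A1 differed between the controls. PECAM1 (1.23 CPM in FaDu and 0.240 CPM in SAS controls) entered that test through the FaDu libraries, so nothing is read from its call.

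For each member the 3 genes with the most alike profile over the 24 libraries, among 12944 genes, are named as a description. They were RHOB (r of 0.899), JUN and PTGER4 for EGR1, AC093525.8 (0.978), HIST3H2A and ZFP36 for EGR2, TIGD1 (0.940), TIMM23B and IRS2 for EGR3, and ARL14 (0.95), AC007996.1 and SNX32 for EGR4. For ARC they were JUND (0.981), PPP1R15A and DUSP1, for NAB1 PRRG4 (0.940), KCNJ14 and CBR1, and for NAB2 the chaperone genes DNAJA1 (0.986) and HSPH1 (0.983) with LRIF1 (0.986) between them. Libraries of the same condition share treatment and cell line in these profiles. Among the members, EGR2 and EGR4 were most alike (0.929), followed by EGR3 and ARC (0.863) and EGR1 and EGR3 (0.860), while NAB2 had 0.727 with ARC and -0.007 with EGR2.

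In the annotation EGR1, EGR2, EGR4 and ARC overlapped no other gene. NAB2 overlapped STAT6 on the opposite strand, which had mean levels of 154 to 240 CPM, EGR3 overlapped AC055854.1 and NAB1 overlapped AC006460.1, both on the opposite strand. AC055854.1 had 5.32 CPM in SAS controls and 0.0312 CPM in FaDu controls. The labels name a directional library kit, but the strand setting of the counting is not given in the sources used here, so a share of opposite-strand reads in NAB2, EGR3 and NAB1 was not tested. Of the nearest genes on either side, ADO beside EGR2 went from a mean of 45.5 CPM in FaDu controls to 39.6 CPM after HT and FBXO41 beside EGR4 from 22.0 to 23.7 CPM. Both genes next to EGR1 and both next to ARC had mean levels of 0.0747 CPM or less in every condition.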

How the data were processed

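RNA sequencing counts per Ensembl gene, deposited by the authors as integer tables made with a directional library kit, were used as given for 24 libraries. The aligner, the counting tool and its strand setting are not given in the sources used here, and the labels name a mouse genome build although the gene identifiers are human. Of 57500 genes, 56898 were found in GENCODE v29. The members and the gene lists were chosen with earlier results of these data known. In edgeR 4.0.16 (R 4.3.3), low counts were filtered with filterByExpr at a minimum count of 10, libraries were scaled with TMM, and quasi-likelihood F tests (two-sided) were adjusted by Benjamini-Hochberg over all genes tested. A gene was called when its adjusted p was below 0.05 and its log2 fold change exceeded 1 in size. Dividing that size by the square root of F gave the standard error. Intervals are 95% and cover counting error only, as do upper limits for a count of 0 (3 counts). List genes are named where called in RT against control, HT + RT against HT or the control comparison, and the 3 with the largest change where called in HT or HT + RT against control. GRIA1, GRIA2, SNAP25, STMN2 and COL1A2 were named for their levels after these had been seen.

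Alternatives were RLE scaling, no filter, a stricter filter (10 counts or more in each library), a single fit per spheroid type (over both types where both entered), a replicate block, DESeq2 1.42.0, each of 24 libraries left out in turn (126 refits) and, chosen after seeing the data, replicate 1 left out of all FaDu groups. Same-numbered replicates were alike beyond their groups (every pair over 0.1 in correlation of residuals) in 11 of 16 comparisons, among them RT against control in FaDu (0.224 to 0.588) and SAS spheroids (0.218 to 0.335), and not in the control comparison (-0.034 to 0.123).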

Additional observations from a re-analysis of the deposited data

Results flagged for a closer look

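In these contrasts every FaDu library moved one way and every SAS library the other, and the difference between the spheroid types was not tested. For HT and HT + RT against control it was fitted and is given in the report as a description with no p-value. The values are log2 fold changes.

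EGR3 had 4.45 in FaDu and -0.52 in SAS spheroids for HT against control, and 4.45 and -0.63 for HT + RT against control. NAB1 had -0.20 in FaDu and 0.85 in SAS spheroids for HT + RT against control. For HT + RT against RT, EGR1 had 1.99 in FaDu and -0.72 in SAS spheroids, EGR3 had 3.86 and -0.76, and EGR4 had 4.89 and -0.97. Heated against unheated values chose the genes, and the RT doses differed between the types.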

How the results depend on the processing

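Of 108 counts of members called under other settings 101 were within 1.5 times the reported count, as were 122 of 126 with 1 library left out and 8 of 10 without replicate 1 in FaDu groups. Of 644 log2 fold changes under other settings 634 kept their direction and their side of the threshold or, in contrasts with no test, moved by less than 1 SD between replicates. With 1 library left out this held for 811 of 876, while 31 changed sign, 26 moved by more and, in tested comparisons, 6 gained a call and 2 lost one. Without replicate 1 in FaDu groups it held for 56 of 69, while 3 changed sign, 6 moved by more and, in tested comparisons, 3 gained a call and 1 lost one. Of 112 mean levels under other scaling, 16 moved by more than 1 SD. The replicate block changed the EGR1 call after RT in both types and no other call of a member. Causes were not tested.

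For RT against control in FaDu spheroids 1 member (EGR1) was called with no filter and 1 with the block, and 0 to 1 with a library left out, the 1 without RT replicate 1 or without FaDu replicate 1. For the RT effect with heat minus without in FaDu spheroids, no filter called 2 (EGR1 and ARC, the latter with 0 to 15 counts in each unheated library), among 18 of 38754 genes (0.0464%), and leaving out a library 0 to 1. For RT in SAS spheroids the block called 1 and leaving out a library 0 to 1, the 1 without control replicate 3, as for the RT effect with heat minus without (0 to 1). On the adjusted p alone, 4 members were upward and 3 downward in SAS HT + RT against RT, beside 14.1% and 13.8% of genes. Nothing is read from these counts, because heated against unheated values chose the members. Between the controls 7 members passed on the adjusted p alone, beside 75% of genes. For the RT effect FaDu minus SAS, no filter called 1 (EGR1), among 6 of 34996 genes (0.0171%).

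These log2 values changed sign. NAB2 after RT in FaDu spheroids was -0.003313 with no filter, -0.007992 with the block, -0.001769 in DESeq2 and -0.1256 to 0.08246 with a library left out. EGR3 in FaDu HT + RT against HT was 0.01373 with the block. With a library left out, FaDu HT + RT against HT ran from -0.07821 to 0.0102 for EGR1, -0.233 to 0.01599 for EGR2, -0.255 to 0.1825 for EGR3, -0.2939 to 0.0003837 for EGR4, -0.1984 to 0.1176 for ARC and -0.09057 to 0.1347 for NAB1. SAS HT + RT against HT ran from -0.02639 to 0.1594 for EGR2, -0.2935 to 0.2687 for EGR4 and -0.06387 to 0.01215 for NAB2. NAB2 in the FaDu RT effect with heat minus without ran from -0.03122 to 0.1814, and EGR3 after RT in SAS spheroids from -0.001578 to 0.2238. The RT effect FaDu minus SAS ran from -0.6599 to 0.1555 for EGR2 and -0.04146 to 0.08005 for NAB1.

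Depth limits ARC in unheated FaDu spheroids, where a control library with 0 counts allows up to 0.153 CPM.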
